A study of Homo sapiens with 6 samples.

Results

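The 31 genes described here encode the enzymes that build cholesterol and fatty acids and the SREBP proteins that control them, measured in TC28a2, a line of immortalised human chondrocytes. They were chosen by name, as sterol pathway enzymes, SREBP regulators and fatty acid synthesis enzymes, and all 31 were found among the 28395 genes of the count table. TC28a2 cells transfected with a ZEB1 overexpression vector (3 libraries) were compared with TC28a2 cells transfected with a control vector (3 libraries), both harvested 48 h after transfection. The labels name no other treatment, and they give neither the vectors' promoter nor the share of cells transfected. RNA was counted by DRUG-seq, an RNA-seq method made for many samples at low cost. The labels do not say whether replicates came from separate cultures, so each p-value reflects the spread between libraries alone, which may be technical.

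Cholesterol is made from acetyl-CoA by the mevalonate branch, which ends in farnesyl diphosphate, and by the squalene and sterol branch, which closes the ring and trims it. Fatty acids are made from citrate-derived acetyl-CoA by ACLY, ACACA and FASN and are then elongated and desaturated. Both pathways are driven by the transcription factors SREBF1 and SREBF2, which SCAP escorts out of the endoplasmic reticulum when sterols are low and INSIG1 holds back when sterols are high. Because the factors act on nearly all of these promoters, a change in sterol supply typically moves the enzymes together. ZEB1, a zinc finger repressor of epithelial genes, binds an E-box of the form CACCTG.

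None of the 31 genes passed the test between the ZEB1 vector and the control vector. All 31 had enough counts to be tested, and leaving out TM7SF2, which had few counts, the largest difference was a log2 fold change of 0.52 (SE 0.28) in ACACA. Of the cholesterol enzymes, 5 of 7 in the mevalonate branch and 8 of 11 in the sterol branch had positive log2 fold changes, as did 5494 of 11329 tested genes. The highest among these enzymes were DHCR7, CYP51A1, ACAT2, HMGCS1 and SQLE at 0.32 to 0.46, while SREBF1 had -0.43 (SE 0.30). With library size as the only scaling, the median was 0.14 in the mevalonate branch and -0.03 in the sterol branch. The most highly counted fatty acid genes, FADS1, SCD, ACLY and FASN, had log2 fold changes between -0.07 and 0.14. SREBF2, SCAP and INSIG1 differed more among the 3 ZEB1 libraries than between the group means.

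Depth was 1277632, 1621270 and 3316228 counts for ZEB1 replicates 1, 2 and 3, and 5359200 to 5878640 counts for the controls. ZEB1 itself averaged 11069 ± 3724 CPM (counts scaled to a common library size with TMM factors) with the ZEB1 vector and 24.9 ± 6.64 CPM with the control vector (SD, n = 3 each). Ribosomal protein mRNAs, given here as a measure of library makeup, made up 23.9%, 20.6% and 18.0% of the ZEB1 libraries and 15.7% to 17.9% of the control libraries. Their part in the results below was not tested. In bulk RNA, fewer expressing cells and less RNA per cell cannot be told apart. Of 15 chondrocyte markers, the transcription factor SOX9 alone passed the low-count filter, and the cartilage matrix genes ACAN and COL2A1 had a mean of 2.17 and 1.83 counts a library. Most of the listed markers of lipid-making cell types had few or no counts. Of 11 adipocyte markers 8 were not tested, and ADIPOQ, CIDEA, GPD1 and RETN were at 0 in all 6 libraries. The 3 tested were PPARG, FABP4 and LPL, with 348, 35 and 51 counts in all. PPARG, the most counted of the 11 in every library, averaged 19.7 ± 15.4 CPM in ZEB1 and 14.2 ± 4.24 CPM in control libraries (SD, n = 3 each). Its log2 fold change was 0.39 (SE 0.47). Scaled to library size without TMM factors, the 11 markers summed to 16.0 to 36.8 in ZEB1 and 12.3 to 24.5 in control libraries. Of 12 hepatocyte markers 11 were not tested, and APOB, APOC3, APOH and TTR were at 0 in all 6 libraries. SERPINA1 was tested, with 56 counts in all. On the same scale without TMM factors, the 12 markers summed to 4.22 to 8.02 in ZEB1 and 1.03 to 4.76 in control libraries.

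Promoters are shown for 5 members, to place the SREBP and ZEB1 letters beside the expression values that follow. SREBF2 (chr22:41832855-41833154, plus strand) is the member whose window holds the sterol element in the letters searched, TCACCCCAC. DHCR7 (chr11:71448344-71448643, minus strand) and HMGCS1 (chr5:43313363-43313662, minus strand) are members whose ZEB1 libraries all lay above the controls. CYP51A1 (chr7:92134428-92134727, minus strand) and TM7SF2 (chr11:65111622-65111921, plus strand) hold the ZEB1 E-box and had the highest and the lowest log2 fold change among such members. The sequences are RefSeq windows of GRCh38.p14, from 250 bases before to 50 after a transcription start (the first listed where a gene has several), read 5′ to 3′ on the gene's strand. Capitals mark the sterol element core CACCCCAC, the ZEB1 E-box CACCTG, the SREBP and basic helix-loop-helix E-box CACGTG and the NF-Y box CCAAT, or the same motifs on the other strand.
SREBF2: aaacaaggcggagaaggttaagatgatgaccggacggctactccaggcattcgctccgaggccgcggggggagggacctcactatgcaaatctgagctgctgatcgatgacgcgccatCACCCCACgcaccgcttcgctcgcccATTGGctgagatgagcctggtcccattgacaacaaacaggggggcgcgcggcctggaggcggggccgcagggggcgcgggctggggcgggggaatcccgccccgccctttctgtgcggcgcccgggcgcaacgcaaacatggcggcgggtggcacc
DHCR7: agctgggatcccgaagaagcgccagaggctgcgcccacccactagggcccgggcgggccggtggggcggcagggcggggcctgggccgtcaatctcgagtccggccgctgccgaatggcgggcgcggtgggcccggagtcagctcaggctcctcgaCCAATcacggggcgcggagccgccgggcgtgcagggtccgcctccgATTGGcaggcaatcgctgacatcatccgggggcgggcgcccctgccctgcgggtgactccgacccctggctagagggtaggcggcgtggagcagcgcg
HMGCS1: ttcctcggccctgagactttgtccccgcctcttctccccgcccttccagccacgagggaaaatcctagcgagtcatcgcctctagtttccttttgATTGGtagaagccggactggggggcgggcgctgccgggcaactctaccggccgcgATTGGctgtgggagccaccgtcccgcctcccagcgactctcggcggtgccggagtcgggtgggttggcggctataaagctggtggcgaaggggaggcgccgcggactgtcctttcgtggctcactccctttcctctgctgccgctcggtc
CYP51A1: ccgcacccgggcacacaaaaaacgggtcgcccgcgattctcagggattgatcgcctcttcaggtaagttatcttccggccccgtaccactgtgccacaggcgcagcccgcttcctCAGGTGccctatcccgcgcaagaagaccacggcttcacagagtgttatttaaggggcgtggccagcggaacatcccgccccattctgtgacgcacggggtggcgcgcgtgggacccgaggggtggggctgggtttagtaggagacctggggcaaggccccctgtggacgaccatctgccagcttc
TM7SF2: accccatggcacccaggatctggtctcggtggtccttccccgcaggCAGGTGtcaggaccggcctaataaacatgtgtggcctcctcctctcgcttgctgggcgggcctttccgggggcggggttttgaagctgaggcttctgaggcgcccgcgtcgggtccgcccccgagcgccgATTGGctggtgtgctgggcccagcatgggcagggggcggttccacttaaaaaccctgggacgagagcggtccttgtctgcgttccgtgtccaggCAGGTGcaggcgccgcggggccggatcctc

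RefSeq windows were matched by Entrez gene ID for 27 of the 31 members. The windows used here included none for ACAT2, FDFT1, SQLE and FASN. The sterol element TCACCCCAC was found, on either strand, in 1 member window (3.70%) and in 0.372% of 9138 windows of tested genes. Its core CACCCCAC, which the longer element contains, was found in the same window alone and in 2.39% of windows of tested genes. Other forms of the element were not searched, so a window without a match was not shown to lack one. CCAAT, the site of the SREBP partner NF-Y, was found in 18 of 27 member windows (66.7%) and in 36.9% of those of tested genes. The GC box GGGCGG was found in 24 of 27 member windows (88.9%) and 72.2% of those of tested genes, and the E-box CACGTG in 5 (18.5%) and 10.5%. The ZEB1 E-box CACCTG was found in 6 of 27 (22.2%), those of CYP51A1, EBP, HSD17B7, MSMO1, SC5D and TM7SF2, and in 17.1% of windows of tested genes. Apart from the sterol element and its core, no searched motif contains another. The 6 members with CACCTG had a median log2 fold change of 0.08 (-1.29 to 0.41, 4 higher and 2 lower), and the 21 without it had a median of 0.05 (-0.43 to 0.52, 13 higher and 8 lower). A match describes the letters of the window and is not a measured binding site.

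**Figure D1:**
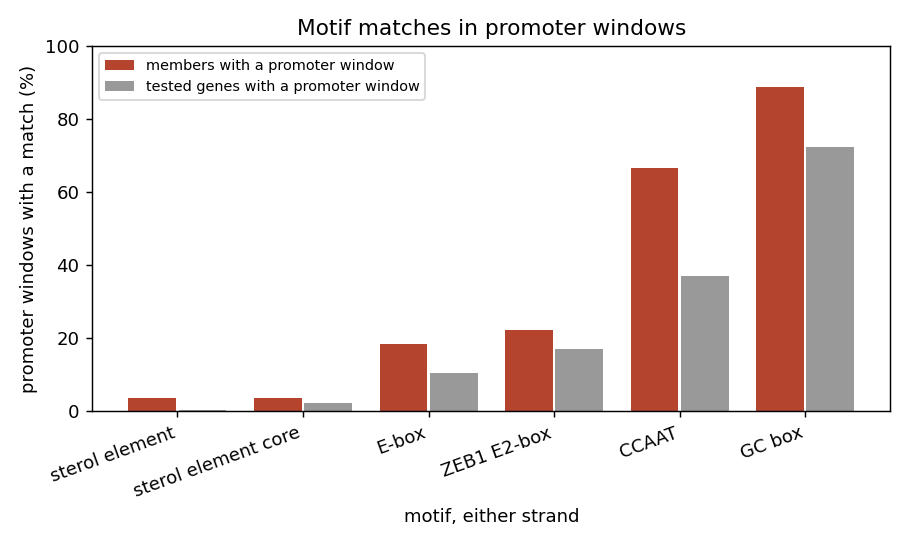
Share of promoter windows (vertical axis, percent) with at least one match to each motif on either strand, for the 27 members with a window (red) and 9138 tested genes with a window (grey). CCAAT matches stood at 66.7% of member windows against 36.9%, and the ZEB1 E-box at 22.2% against 17.1%.

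Counts were tested with edgeR's quasi-likelihood test over all 11329 genes that passed the low-count filter, with Benjamini-Hochberg adjustment over all of them. None of the 31 members passed an adjusted p of 0.05, where 0.00883% of all tested genes did, which was ZEB1 alone. The smallest adjusted p among the members was 0.528, for DHCR7. DESeq2 called 0 of the 11 members to which it gave an adjusted p (7.49% of all genes with one), limma-voom called 0 of 31 (0.512% of all tested) and limma-voom with quality weights 0 of 31 (1.36%). At an unadjusted edgeR p under 0.05, 1 member was higher, against 5.83% of all tested genes, and 0 were lower, against 3.57%. In CPM, 3 members had all ZEB1 libraries above all controls, against 6.96% of tested genes, and 0 had all below, against 8.16%. In either direction, 9.4% of tested genes had such a p and 15.1% had groups that did not overlap, so the members' counts of 1 and 3 were near or below the background. The adjusted edgeR call was also 0 members with other fits. With no low-count filter 0.693% of genes were called, and without ZEB1 replicate 3, 3.38%. With a mean count of at least 20 it was 0.0102%, with thinning to equal depth 0.0111%, and with ZEB1 replicate 3 alone against the controls 0.0154%. Without control replicate 1, 2 or 3 it was 0.00886%, 0.00881% or 0.00884%, and without ZEB1 replicate 1 or 2 0.00826%.

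The members' median log2 fold change was 0.08, with 20 higher and 11 lower. All tested genes had a median of -0.01, with 5494 higher and 5835 (51.5%) lower. With library size as the only scaling the median of all tested genes was -0.14 and that of the members -0.05. Together the 31 genes took 0.173%, 0.217% and 0.208% of counts in ZEB1 replicates 1, 2 and 3, against 0.215%, 0.212% and 0.203% in control replicates 1, 2 and 3. The exact 95% binomial intervals, which cover counting error only, were 0.166% to 0.180% in ZEB1 replicate 1 and 0.199% to 0.206% in control replicate 3. ZEB1 replicate 1 was below all controls, replicate 2 was above them by less than its interval and replicate 3 was inside their range.

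The precision was enough to bound most members. The 95% interval of the log2 fold change lay inside -1 and 1, a 2-fold change either way, for 21 of 31 members (67.7%), as it did for 50.4% of all tested genes. It lay inside a 1.5-fold change for 8 members (25.8%, against 17.0% of tested genes). The 10 members for which a 2-fold change was not excluded were ACAT2, MVK, IDI1, TM7SF2, HSD17B7, SC5D, SREBF1, STARD4, ACACA and ELOVL6. Their mean counts ran from 12.7 a library for TM7SF2 to 144 for SREBF1.

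**Figure D2:**
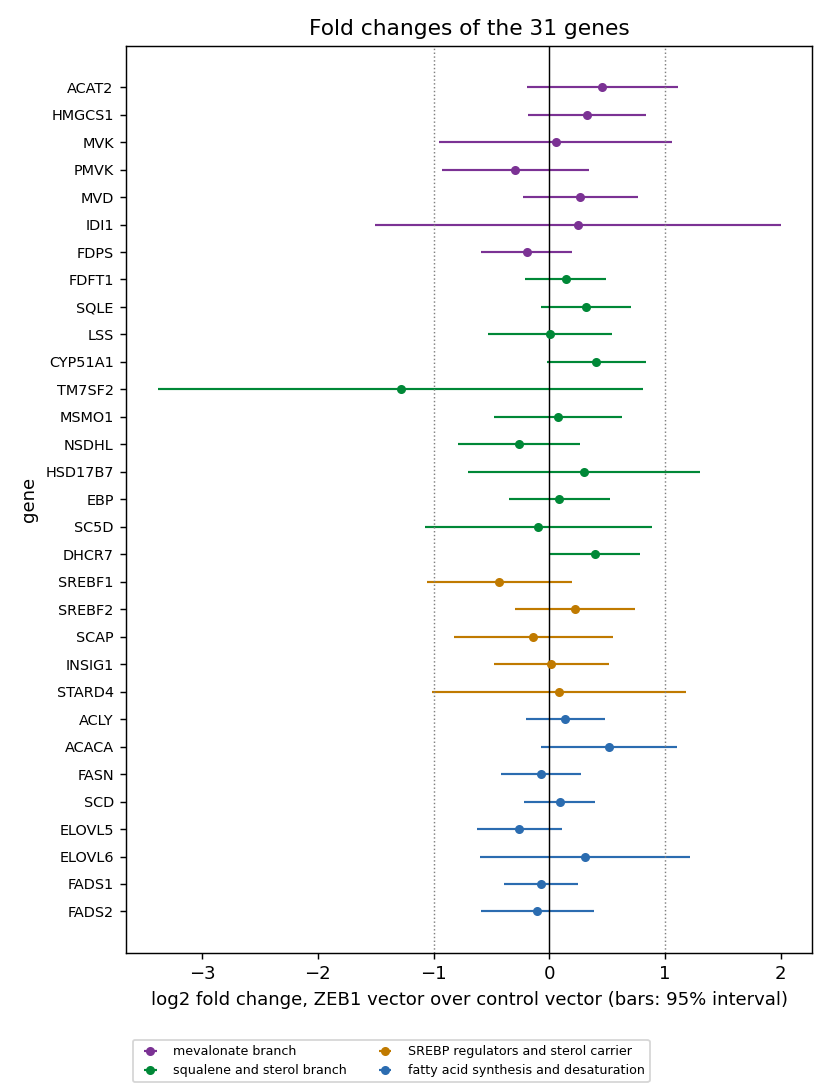
Log2 fold change of each member, ZEB1 vector over control vector (horizontal axis), with its 95% interval from edgeR, coloured by role; dotted lines mark a 2-fold change either way. The intervals of 30 members cross 0, and those of TM7SF2 and IDI1, with few counts, are the widest.

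**Figure D3:**
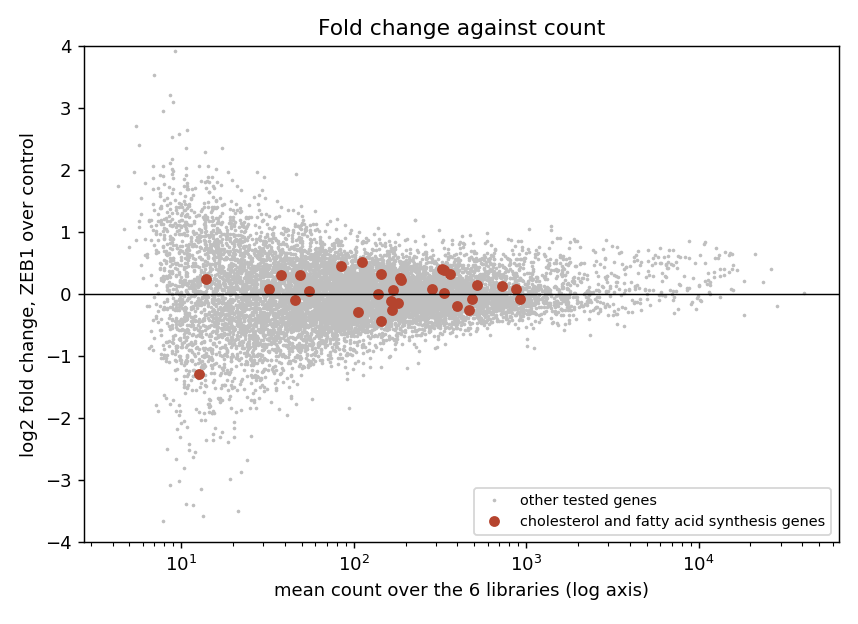
Log2 fold change (vertical axis) against mean count over the 6 libraries (log axis) for the 31 members (red) and the other tested genes (grey); 13 of 11329 tested genes lie beyond the vertical limits, at 4 in either direction. The members lie within the cloud of other genes at each count.

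In the mevalonate branch 5 of 7 genes had positive and 2 negative log2 fold changes, with a median of 0.25, and none passed the test. HMGCS1 (chromosome 5, 43287470 to 43313412, GRCh38.p14), which condenses acetoacetyl-CoA to HMG-CoA, had 40.0, 49.5 and 39.3 CPM in ZEB1 replicates 1, 2 and 3, against 36.4, 34.1 and 32.0 CPM in control replicates 1, 2 and 3. All ZEB1 libraries were above all controls, with the lowest ZEB1 library 1.08-fold above the highest control. The log2 fold change was 0.33 (SE 0.25, edgeR adjusted p = 0.744). ACAT2 (chromosome 6, 159762045 to 159779112), the cytosolic thiolase that makes acetoacetyl-CoA, had 21.3, 26.4 and 29.8 CPM in ZEB1 libraries, against 18.8, 18.6 and 19.7 CPM in controls. The groups did not overlap, and the log2 fold change was 0.46 (SE 0.31, edgeR adjusted p = 0.707). The RefSeq interval of ACAT2 is overlapped by TCP1, which had 6173 counts in all against 505 for ACAT2, and the strand setting is not given in the sources used here, so this value is uncertain. With library size as the only scaling, the groups overlapped in HMGCS1, ACAT2 and, below, DHCR7. With all libraries thinned to equal depth in a single random draw, they overlapped in HMGCS1 and not in ACAT2 or DHCR7. The log2 fold change of HMGCS1 was 0.04 in that draw.

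FDPS (chromosome 1, 155308866 to 155320665), the farnesyl diphosphate synthase at the end of the branch, had 80.9, 107 and 84.6 CPM in ZEB1 libraries, against 89.7, 121 and 101 CPM in controls. The groups overlapped, and the log2 fold change was -0.19 (SE 0.19). RefSeq names 10 FDPS pseudogenes, and how reads of such copies were assigned is not stated. MVD, the mevalonate diphosphate decarboxylase, had a log2 fold change of 0.27 (SE 0.24), and PMVK, the phosphomevalonate kinase, had -0.29 (SE 0.31). MVK, the mevalonate kinase, had 17, 6 and 71 counts in ZEB1 libraries, against 104, 79 and 54 in controls. Scaled, these were 15.1, 3.86 and 21.1 CPM against 16.7, 14.4 and 8.81 CPM, so that the ZEB1 libraries lay on both sides of the controls, with a log2 fold change of 0.05 (SE 0.48). IDI1, the isopentenyl diphosphate isomerase, had 1, 10 and 14 counts in ZEB1 libraries, against 20, 22 and 17 in controls, too few to show a difference. The RefSeq interval of MVK is overlapped by MMAB, which had 682 counts in all against 331 for MVK. That of IDI1 is overlapped by WDR37, with 94 counts against 84. Without the strand setting, the values of MVK and IDI1 are uncertain.

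In the squalene and sterol branch 8 of 11 genes had positive and 3 negative log2 fold changes, with a median of 0.09, and none passed the test. DHCR7 (chromosome 11, 71427287 to 71449043), which makes the last reduction to cholesterol, had 107, 113 and 90.9 CPM in ZEB1 libraries, against 89.5, 66.9 and 78.5 CPM in controls. The groups were separated by 1.02-fold, between ZEB1 replicate 3 and control replicate 1. The group means were 103 ± 11.2 CPM and 78.3 ± 11.3 CPM (SD, n = 3 each). DHCR7 thus had a log2 fold change of 0.39 (SE 0.19), an unadjusted p of 0.0484 and an edgeR adjusted p of 0.528. CYP51A1 (chromosome 7, 92112153 to 92134803), the lanosterol demethylase, had 93.3, 129 and 84.6 CPM in ZEB1 libraries, against 82.1, 86.8 and 61.2 CPM in controls. ZEB1 replicate 3 lay below control replicate 2, and the log2 fold change was 0.41 (SE 0.20, edgeR adjusted p = 0.566). SQLE, the squalene epoxidase, had 118, 127 and 86.1 CPM in ZEB1 libraries, against 92.4, 85.9 and 84.9 CPM in controls. In SQLE the shallower ZEB1 replicates 1 and 2 were above the controls and replicate 3 was within them, with a log2 fold change of 0.32 (SE 0.19). CYP51A1, SQLE and TM7SF2, with MVK and IDI1 above and STARD4, ACLY, ACACA, SCD, FADS2 and ELOVL5 below, were chosen for values by library after those values were seen.

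FDFT1 (chromosome 8, 11795582 to 11839298), the squalene synthase, had 129, 167 and 129 CPM in ZEB1 libraries, against 120, 126 and 139 CPM in controls. Its groups overlapped, with a log2 fold change of 0.14 (SE 0.17). LSS, MSMO1 and EBP, which form and trim the sterol ring, had log2 fold changes of 0.01 (SE 0.26), 0.07 (SE 0.26) and 0.09 (SE 0.21). NSDHL, the sterol dehydrogenase on the X chromosome, had -0.26 (SE 0.25). HSD17B7 had 0.30 (SE 0.48), and its pseudogene HSD17B7P2 took 91 counts over the 6 libraries, so its own count is uncertain. SC5D had -0.09 (SE 0.47). TM7SF2, a sterol reductase, had 0, 1 and 10 counts in ZEB1 libraries, against 15, 30 and 20 in controls. In CPM these were 0, 0.643 and 2.98 against 2.41, 5.47 and 3.26, so ZEB1 replicate 3 lay within the controls. On the same scale a floor of 3 counts stood for 2.67 and 1.93 CPM in ZEB1 replicates 1 and 2, and the log2 fold change of -1.29 (SE 1.00) was not distinguishable from 0. It was -3.25 without ZEB1 replicate 3 and -0.89 without ZEB1 replicate 1.

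**Figure D4:**
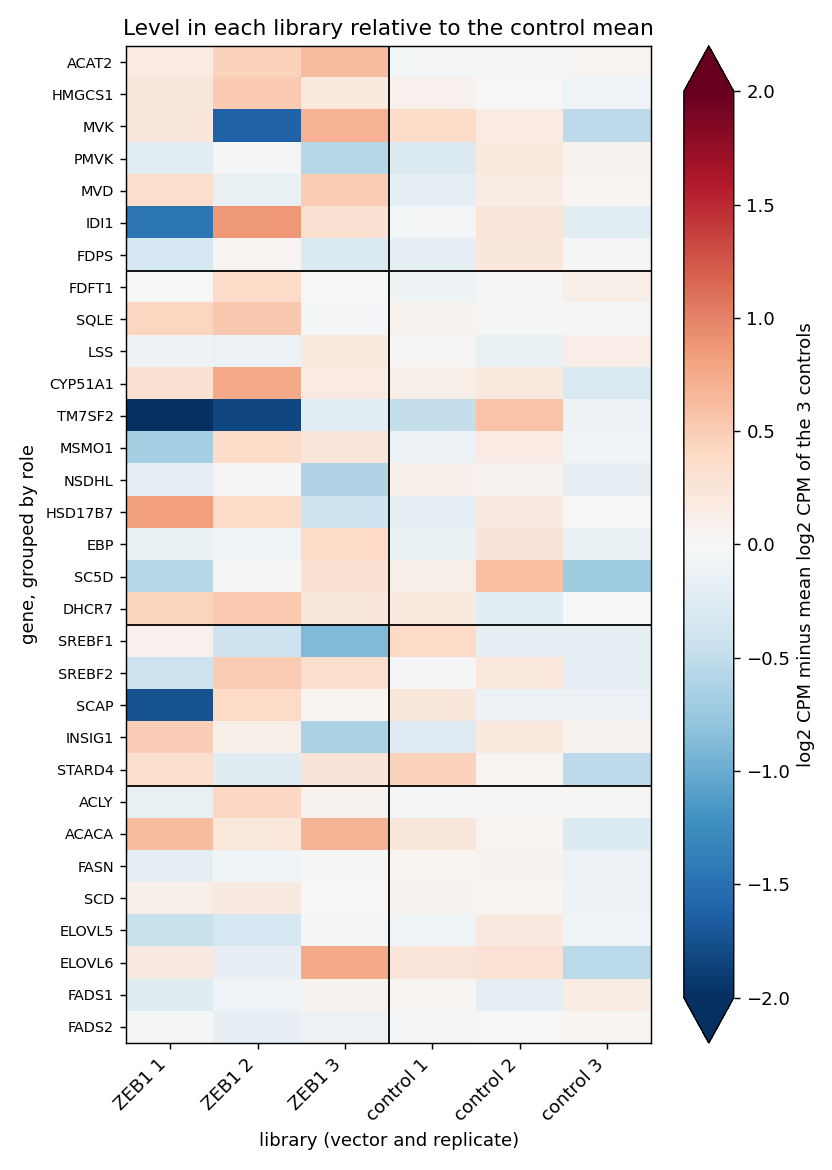
Log2 CPM of each member (rows, grouped by role with black lines) in each library (columns) minus its mean in the 3 controls; red is higher and blue lower, and values beyond -2 or 2 take the end colours. ZEB1 replicate 1 has the deepest blue cells, in TM7SF2 (-3.00), SCAP (-1.73) and IDI1 (-1.45), and ZEB1 replicate 2 in TM7SF2 (-1.81) and MVK (-1.62).

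Among the SREBP regulators and the sterol carrier, 3 of 5 genes had positive and 2 negative log2 fold changes, with a median of 0.02, and no groups were apart. SREBF1 (chromosome 17, 17811334 to 17836986), the factor that mainly drives fatty acid genes, had 40.9, 28.9 and 20.6 CPM in ZEB1 libraries, against 50.7, 33.5 and 33.6 CPM in controls. ZEB1 replicates 2 and 3 were below all controls and replicate 1 was within them, with a log2 fold change of -0.43 (SE 0.30, edgeR adjusted p = 0.711). It was -0.70 without ZEB1 replicate 1 and -0.19 without ZEB1 replicate 3. RAI1 overlaps the RefSeq interval of SREBF1 and had 325 counts in all. SREBF2 (chromosome 22, 41833105 to 41907305), the factor that mainly drives sterol genes and the one whose window holds the sterol element, had 33.8, 64.3 and 57.8 CPM in ZEB1 libraries, against 44.3, 52.0 and 39.7 CPM in controls. ZEB1 replicate 1 was below all controls and replicates 2 and 3 above them, with a log2 fold change of 0.22 (SE 0.25).

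SCAP (chromosome 3, 47413681 to 47477127), the escort protein, had 13.3, 60.4 and 47.4 CPM in ZEB1 libraries, against 53.4, 42.1 and 41.9 CPM in controls. The value of ZEB1 replicate 1 rested on 15 counts, with an exact 95% Poisson interval of 7.46 to 22.0 CPM, which lies below the values of all other libraries. The log2 fold change was -0.14 (SE 0.33) and was 0.21 without that library. INSIG1 (chromosome 7, 155297878 to 155310235), the sterol-sensing anchor and itself a classic SREBP target, had 122, 93.9 and 55.1 CPM in ZEB1 libraries, against 71.9, 98.8 and 90.1 CPM in controls. ZEB1 replicate 1 was above and replicate 3 below all controls, with a log2 fold change of 0.02 (SE 0.24) and an interval of -0.48 to 0.51. STARD4, a cytosolic sterol carrier, had 9.77, 6.43 and 9.23 CPM in ZEB1 libraries, against 10.7, 8.02 and 5.22 CPM in controls, and its groups overlapped. The regulators did not share an order over the ZEB1 libraries, since replicate 1 had the highest SREBF1 and INSIG1 and the lowest SREBF2 and SCAP.

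**Figure D5:**
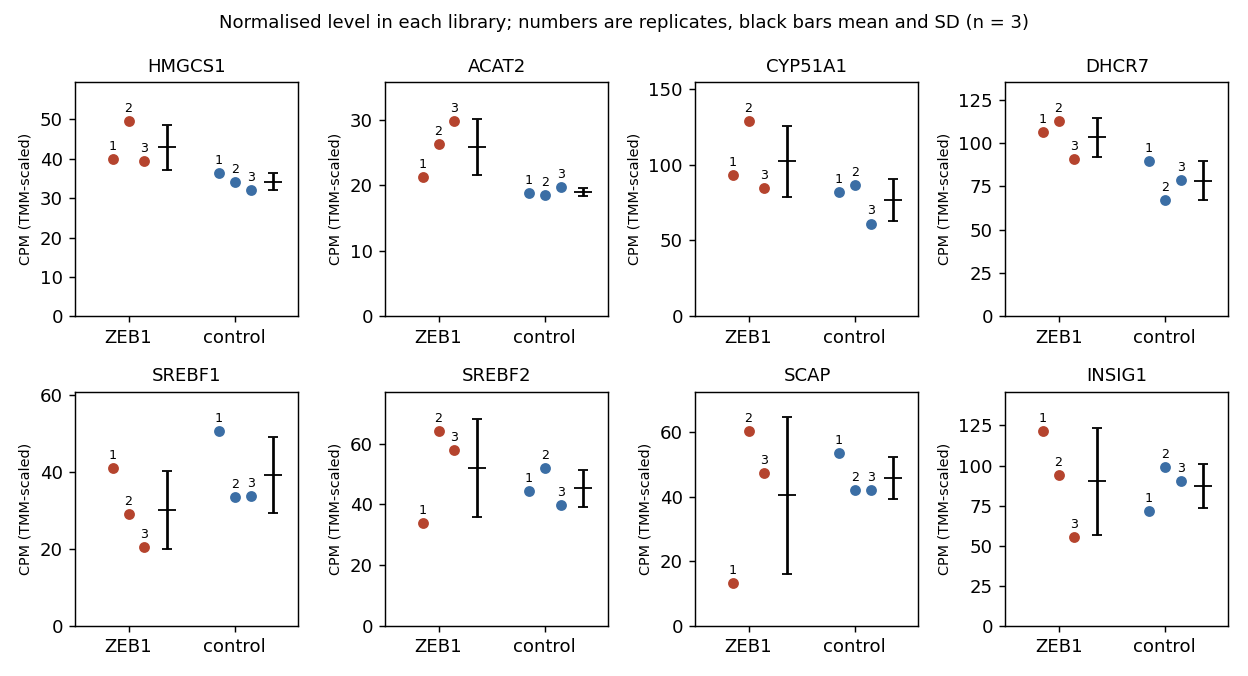
TMM-scaled CPM (vertical axes, from 0) of 4 sterol enzymes and 4 SREBP regulators in each ZEB1 (red) and control (blue) library, numbered by replicate, with mean and SD in black (n = 3 each). HMGCS1, ACAT2 and DHCR7 have all ZEB1 points above all control points, and SCAP has ZEB1 replicate 1 at 13.3 CPM.

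In fatty acid synthesis and desaturation 4 of 8 genes had positive and 4 negative log2 fold changes, with a median of 0.01, and no groups were apart. ACLY, which makes cytosolic acetyl-CoA from citrate, had 161, 239 and 187 CPM in ZEB1 libraries, against 173, 182 and 180 CPM in controls. ZEB1 replicate 1 was below and the other ZEB1 libraries above all controls, with a log2 fold change of 0.14 (SE 0.16). ACACA, the acetyl-CoA carboxylase that commits carbon to fatty acids, had 38.2, 28.9 and 40.2 CPM in ZEB1 libraries, against 29.0, 25.9 and 20.4 CPM in controls. ZEB1 replicate 2 was within the controls and the others above them, and the log2 fold change of 0.52 (SE 0.28) had an edgeR adjusted p of 0.603. FASN, the fatty acid synthase, averaged 116 ± 9.03 CPM in ZEB1 and 123 ± 8.65 CPM in control libraries (SD, n = 3 each), with a log2 fold change of -0.07 (SE 0.16).

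SCD, the desaturase that makes oleate, had 232, 246 and 217 CPM in ZEB1 libraries, against 229, 223 and 200 CPM in controls. The groups overlapped, and the interval of its log2 fold change, -0.22 to 0.40, excluded a 1.5-fold change either way. FADS1 (chromosome 11, 61799627 to 61817003), the delta-5 desaturase of polyunsaturated fatty acids, had 195, 220 and 241 CPM in ZEB1 libraries, against 236, 202 and 253 CPM in controls. Its log2 fold change was -0.07 (SE 0.15), with an interval of -0.39 to 0.25. FADS2, the delta-6 desaturase next to it, had 41.8, 37.9 and 39.0 CPM in ZEB1 libraries, against 41.7, 42.1 and 43.6 CPM in controls, a log2 fold change of -0.11 (SE 0.23). FADS1 and FADS2 overlap at their starts, on opposite strands, so a few reads there could not be told apart without strand. The elongases ELOVL5 and ELOVL6 had -0.26 (SE 0.18) and 0.31 (SE 0.43). ELOVL5 had 88.9, 94.5 and 119 CPM in ZEB1 libraries, against 114, 137 and 114 CPM in controls, with replicates 1 and 2 below and replicate 3 within the controls.

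The spread inside the ZEB1 group was wider for most members. The coefficient of variation over the 3 libraries was larger in the ZEB1 group than in the controls for 25 of 31 members, with a median of 21.2% against 13.7%. Counting error alone gives a median of 12.4% in the shallower ZEB1 libraries and 6.22% in the controls, if reads are independent. The wider spread was not particular to the members. Over all tested genes, edgeR's common estimate of the spread beyond counting error was 34.4% in the ZEB1 group and 18.8% in the controls. How far depth sets the wider spread was not tested.

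In 5 further lists of neighbouring pathways no gene passed the edgeR threshold. Of 33 other sterol and SREBP pathway genes 29 were tested, 20 higher and 9 lower, with a median log2 fold change of 0.10. The 3 with the smallest unadjusted p were GGPS1, ERG28 and LBR. GGPS1, which makes geranylgeranyl diphosphate from the product of FDPS, had 34.7, 24.4 and 16.4 CPM in ZEB1 libraries, against 9.46, 10.8 and 13.5 CPM in controls. All ZEB1 libraries of GGPS1 were above all controls, with a log2 fold change of 1.12 (SE 0.38) and an edgeR adjusted p of 0.303. ERG28, a scaffold of the sterol enzymes, had a log2 fold change of 0.47 (SE 0.22), and LBR, a sterol reductase of the nuclear envelope, had 0.41 (SE 0.19).

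Of 37 other fatty acid synthesis, activation and elongation genes 28 were tested, 15 higher and 13 lower, with a median log2 fold change of 0.02. ACSS2, which makes acetyl-CoA from acetate, had 2.67, 6.43 and 6.85 CPM in ZEB1 libraries, against 16.0, 15.7 and 6.53 CPM in controls, and its groups overlapped through control replicate 3. Its log2 fold change was -1.18 (SE 0.53, edgeR adjusted p = 0.502), and the mitochondrial reductase gene MECR had -0.54 (SE 0.29) and the acyl-CoA synthetase gene ACSL3 0.43 (SE 0.25). Of 12 LXR receptors and targets, which respond to sterol excess, 9 were tested (6 higher, 3 lower, median 0.08), with LPCAT3 at 0.34 (SE 0.23), MYLIP at 0.72 (SE 0.62) and PLTP at 0.28 (SE 0.29). Of 22 genes of isoprenoid use 20 were tested (7 higher, 13 lower, median -0.14), with COQ3 at 0.68 (SE 0.36), COQ2 at 0.44 (SE 0.24) and CHM at 0.50 (SE 0.27). Of 26 fatty acid oxidation genes 20 were tested (10 higher, 10 lower, median -0.01). SLC25A20, the carnitine carrier, had 1.78, 0.643 and 6.85 CPM in ZEB1 libraries, against 9.94, 11.3 and 10.3 CPM in controls, and all ZEB1 libraries were below all controls. Its log2 fold change was -1.54 (SE 0.64, edgeR adjusted p = 0.452), and ZEB1 replicates 1 and 2 rested on 2 and 1 counts, below the floor of 3. On leaving out single libraries the log2 fold change of SLC25A20 ran from -3.18 to -1.09 and its edgeR adjusted p from 0.0355 to 0.9999. The lowest came without ZEB1 replicate 3, where 3.38% of tested genes were called. HADHB and ETFDH, of the same list, had 0.46 (SE 0.25) and -0.73 (SE 0.45).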

How the data were processed

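RNA was measured in 6 libraries of TC28a2 cells, 3 with a ZEB1 overexpression vector and 3 with a control vector, grouped by GEO's titles. The authors deposited raw counts per Entrez gene ID. The submitters' processing notes name HISAT2, Subread and featureCounts with the GRCh38 build, and no versions. The sources used here do not give the annotation, the strand setting or the treatment of molecular identifiers. Intervals and floors assume independent reads and cover counting error only. RefSeq's GRCh38.p14 table named 27745 of the 28395 IDs.

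The test was that of edgeR 4.0.16, run in R 4.3.3 (quasi-likelihood, robust dispersions, TMM, filterByExpr, group as the only term), two-sided, with a Benjamini-Hochberg adjusted p of 0.05 over all tested genes. Standard errors are approximate, derived from each F statistic. Log2 CPM used a prior count of 2. Alternatives used DESeq2 1.42.0 and limma 3.58.1, other scalings, filters and binomial thinning to the depth of the shallowest library, the replicate number as a block, and fewer libraries. The thinning was a single random draw, and how its results vary between draws was not tested. The edgeR steps were tested on simulated counts. The replicate numbers were not taken to pair the samples.

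The members and lists were chosen with earlier results of these data known. Values in every library are given for members with an unadjusted edgeR p under 0.05, groups that do not overlap or a call by DESeq2 or limma-voom, for SREBF1, SREBF2, SCAP and INSIG1, and for the member with the most counts in each role group. Other lists give their called members, or else up to 3 with the smallest unadjusted p. Motifs were searched as exact letters on both strands.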

Additional observations from a re-analysis of the deposited data

How the results depend on the processing

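No member tested passed an adjusted p of 0.05 under any of the alternatives run (29 were tested with thinning and with a mean count of at least 20, and 11 had an adjusted p from DESeq2), or 0.1 with edgeR as reported, and the ZEB1 difference passed under all of them. Over all genes, edgeR called 1, or 127 with no low-count filter and 2 with ZEB1 replicate 3 alone against the controls, DESeq2 174, limma-voom 58, its version with quality weights 154, and on leaving out single libraries 1 to 409, with 409 without ZEB1 replicate 3. At an unadjusted p under 0.05, 1 member was higher, DHCR7, against 5.83% of tested genes. It was 0 with library size alone (3.06%), with no low-count filter (4.69%) and with the replicate block (4.43%). It was 3 with thinning (CYP51A1, DHCR7 and SQLE, 6.49%), 2 with quality weights (CYP51A1 and DHCR7, 6.33%) and 2 with ZEB1 replicate 3 alone (ACACA and MVD, 2.93%), which also gave 3 lower (4.63%) and takes its spread from the controls. With limma-voom the 1 member was ACACA. On leaving out single libraries it was 0 to 3 higher and 0 to 2 lower, and the 3 (SQLE, CYP51A1 and DHCR7) and the 2 (ELOVL5 and TM7SF2) came without ZEB1 replicate 3, where 8.59% and 9.41% of tested genes had such a p. Members whose groups do not overlap numbered 3 (15.1% of tested genes), 1 with library size alone (FADS2, 16.8%) and 4 with RLE or upper-quartile factors, either other filter, or thinning (12.2% to 15.5%). They numbered 5 to 9 on leaving out single libraries, where smaller groups overlap less often by construction (20.5% to 37.2%).

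The members' median of 0.08 was -0.046 with library size alone and -0.048 to 0.13 on leaving out single libraries. Those ranges were 0.097 to 0.32 for the mevalonate branch, -0.048 to 0.22 for the squalene and sterol branch, -0.15 to 0.084 for the regulators and -0.077 to 0.039 for fatty acid genes. The squalene and sterol branch had -0.032 with library size alone, and its lowest value came without ZEB1 replicate 3. The mevalonate branch had 0.0089 with thinning. With library size alone the regulators had -0.13 and the fatty acid genes -0.12. The regulators had -0.17 with limma-voom and -0.064 with quality weights. With the replicate block they had -0.017 and the mevalonate branch 0.072. Same-numbered libraries correlated at -0.032, -0.0095 and 0.0087, so the numbers were not taken as pairs, and the block changed no call.

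The log2 fold change took the other sign with library size alone in MVK (-0.065), LSS (-0.12), MSMO1 (-0.042), EBP (-0.032), INSIG1 (-0.13), STARD4 (-0.048) and SCD (-0.046), with no filter in LSS (-0.014) and INSIG1 (-0.0065), and with thinning in MVK (-0.024), LSS (-0.16) and MSMO1 (-0.046). It did so with limma-voom in SC5D (0.14) and INSIG1 (-0.17), with quality weights in MVK (-0.16), SC5D (0.12) and INSIG1 (-0.064), and with the replicate block in MVK (-0.094), LSS (-0.0060) and INSIG1 (-0.017). With ZEB1 replicate 3 alone it did so in SQLE (-0.033, against 0.32) and HSD17B7 (-0.45, against 0.30), and in SC5D (0.21), SCAP (0.040), INSIG1 (-0.66), FASN (0.014), SCD (-0.010) and FADS1 (0.058). On leaving out single libraries the sign was not kept in MVK (-0.56 to 0.48), IDI1 (-0.23 to 0.63), LSS (-0.13 to 0.069), MSMO1 (-0.084 to 0.30), HSD17B7 (-0.025 to 0.62), EBP (-0.14 to 0.22), SC5D (-0.39 to 0.24), SCAP (-0.47 to 0.21), INSIG1 (-0.26 to 0.30), STARD4 (-0.15 to 0.35), ACLY (-0.031 to 0.24) and ELOVL6 (-0.050 to 0.51). The cause of these moves was not tested.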
